A study of Xenopus tropicalis with 24 samples.

Results

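The early response of the wild-type tail to amputation was compared between a regenerative and a nonregenerative stage of *Xenopus tropicalis*. It is held in 8 of the 24 RNA-seq libraries of the series, those of wild-type tadpoles at 0 and 6 hours post amputation (hpa) at developmental stage 56 (WT56) and stage 61 (WT61). Each of these 4 conditions has 2 libraries. The quantity measured for every gene is the change between 0 and 6 hpa in WT61 minus the same change in WT56, on the log2 scale, and is called the stage difference below. A positive value means that the change was more positive, or less negative, at stage 61. Stage 56 is premetamorphic and stage 61 is the climax of metamorphosis, at which the study describes the wild-type tail as nonregenerative. The animals carried no transgene, all of them had the tail cut under anaesthesia, and no other treatment is given for them. Their stage is the only age the labels give. The same 4 conditions in TRDKO tadpoles, which lack both thyroid hormone receptors (TRα and TRβ), are 8 further libraries (TRDKO56 and TRDKO61) and serve here as a comparison.

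During metamorphosis thyroid hormone (T3), acting through its nuclear receptors, turns the larval tail from a growing organ into one that is resorbed. An amputated larval tail first closes the wound, with an inflammatory and stress response within hours, and then forms a blastema from which muscle, notochord, spinal cord and skin grow again. Immediate early genes encode transcription factors that are transcribed soon after a stimulus such as injury and whose mRNAs decay quickly. Heat shock genes encode chaperones that follow protein damage, and clock genes encode activators and repressors that drive a daily rhythm in most tissues.

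The dissected tissue was all regenerated tail together with a short stump of old tail, so at 0 hpa it was stump alone. Each condition came from several tadpoles whose division between the libraries is not stated in the sources used here, and p-values therefore measure the spread between these libraries, which may be technical. The 8 libraries held between 3956148 and 16645297 counts (median 11333640), fewest in replicate 2 of WT56 at 0 hpa. Levels are given as CPM, the count scaled to the TMM-adjusted library size, with replicate 1 before replicate 2. Where a stage has 2 pairs of values, the first pair is from 0 hpa and the second from 6 hpa. In whole tissue, fewer cells of a type and less RNA per cell cannot be told apart. Of 15 defining markers of the tissues a tail holds, 14 were in the table and had counts in all 8 libraries, from 1.401 to 3.95 CPM for the neuronal *elavl3* up to 5155 to 12660 CPM for muscle creatine kinase, *ckm*. The basal keratin *krt5* has no row in the table.

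Expression changed between 0 and 6 hpa at both stages, and more genes were called in WT56 than in WT61. The series holds no uncut tails at 6 hpa, so the part of amputation in these changes was not tested. Between 0 and 6 hpa, 1623 of 15909 genes tested rose in WT56 (10.2% of genes) and 1377 fell (8.66%), at a false discovery rate (FDR) under 0.05. In WT61, 652 genes rose (4.1%) and 487 fell (3.06%). Both stages shared 755 of these genes, 25.2% of the 3000 called in WT56 and 66.3% of the 1139 called in WT61, and 4 of the 755 moved in opposite directions. Across the 15909 genes the changes at the 2 stages had a Pearson correlation of 0.653, a description over genes, which share libraries and are not independent replicates. The changes had a standard deviation of 0.826 in WT56 and 0.691 in WT61. Expression also differed between the stages at each time, in 3224 genes at 0 hpa (20.3%) and 5393 at 6 hpa (33.9%).

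A different number of calls at the 2 stages does not show that a gene responded differently, and the stage difference itself was tested for each gene. It was called for 4 genes (0.0251% of the 15909 tested), with 3 higher and 1 lower at stage 61. An FDR under 0.1 was reached by 19 genes, 10 higher and 9 lower. At an unadjusted p under 0.05 there were 956 higher (6.01%) and 871 lower (5.47%), together 11.5% of the genes. Of these 1827 genes, 975 had fitted changes of opposite sign at the 2 stages. In 689 the change had the same sign and was smaller at stage 61, and in 163 it was larger. Because these genes were chosen by the difference between the same 2 changes, opposite signs are favoured. The split over all genes is not given here, and nothing is drawn from these counts. The fitted difference was over 1 in size for 1450 genes, and its median over all genes was -0.02. With 2 libraries per condition, the calls depend on each library. Leaving out 1 library at a time gave 0 calls for 5 of the 8 libraries, 7 without replicate 2 of WT61 at 6 hpa, 161 without replicate 1 of WT56 at 6 hpa and 226 without replicate 1 of WT61 at 6 hpa. DESeq2 called 148 genes, 78 higher and 70 lower, and these include all 4.

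The transcription factor gene *klf4*, known from epithelial differentiation and from the reprogramming of somatic cells, showed the smallest p. It lies on chromosome 1 of assembly UCB_Xtro_10.0, from 120791815 to 120801210 on the minus strand. Its level was 157 and 157 CPM in the WT56 libraries at 0 hpa and 22.1 and 19.4 CPM at 6 hpa. In WT61 it was 105 and 81.5 CPM at 0 hpa and 78.9 and 64.4 CPM at 6 hpa. The 4 WT61 libraries thus lay between the high 0 hpa and the low 6 hpa libraries of WT56, and the WT61 libraries did not overlap between the times either. The log2 FC was -2.92 ± 0.18 (SE, n = 2 against 2) in WT56, an FDR of 0.000166, and -0.35 ± 0.16 in WT61, an FDR of 0.2101. The stage difference was 2.56 ± 0.24, with a 95% interval of 2.03 to 3.101 and an FDR of 0.0252.

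The clock output gene *dbp*, a PAR-domain leucine zipper transcription factor, behaved much as *klf4* did. It lies on chromosome 7 from 105021610 to 105063693 on the minus strand. WT56 held 45.95 and 42.3 CPM at 0 hpa and 6.41 and 6.62 CPM at 6 hpa, so that the later level was lower in both libraries. WT61 held 24.2 and 25.4 CPM at 0 hpa and 20.7 and 16.2 CPM at 6 hpa. The log2 FC was -2.76 ± 0.17 in WT56 (FDR 0.000166), against -0.40 ± 0.15 in WT61 (FDR 0.143). Its stage difference was 2.36 ± 0.23 (95% interval 1.84 to 2.88, FDR 0.0252).

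The gene *pcsk6* encodes a proprotein convertase that cuts precursors of the TGF-beta family into their active form. It was the only one of the 4 that changed at both stages, and it did so in opposite directions. It lies on chromosome 3 from 115921184 to 116156263, on the minus strand. In WT56 it fell from 24.7 and 24.5 CPM to 17.1 and 13.8 CPM (log2 FC -0.67 ± 0.19, FDR 0.0378). In WT61 it rose from 12.9 and 11.1 CPM to 35.3 and 45.1 CPM (log2 FC 1.77 ± 0.18, FDR 0.00281). At 0 hpa both WT61 libraries were below both of WT56, and at 6 hpa both were above them. Its stage difference was 2.44 ± 0.26 (95% interval 1.85 to 3.03, FDR 0.0293).

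The gene *r3hdml*, which encodes a secreted protein of the CAP family, went the other way. It lies on chromosome 10 from 38528814 to 38553802, on the minus strand. In WT56 it rose from 9.21 and 12.3 CPM to 40.1 and 48.8 CPM, with a log2 FC of 2.097 ± 0.20 (FDR 0.00126). In WT61 it held 10.5 and 11.7 CPM at 0 hpa and 8.29 and 8.32 CPM at 6 hpa, with a log2 FC of -0.41 ± 0.19 (FDR 0.213). The starting levels of the 2 stages overlapped and the 6 hpa levels did not. Its stage difference was -2.502 ± 0.27 (95% interval -3.12 to -1.89, FDR 0.0293). At 24 hpa the WT61 libraries stood at 41.1 and 36.9 CPM and those of WT56 at 92.3 and 71.9 CPM. Leaving out replicate 1 or 2 of WT56 at 0 hpa, replicate 2 of WT56 at 6 hpa, or replicate 1 or 2 of WT61 at 0 hpa ended the call of all 4 genes, and their FDR over all alternatives reached 0.338. In those fits the condition left with 1 library is assumed to vary like the others. Their sizes moved little, from 2.38 to 2.75 for *klf4*, 2.17 to 2.51 for *dbp*, 2.24 to 2.602 for *pcsk6* and -2.68 to -2.26 for *r3hdml*.

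**Figure D1:**
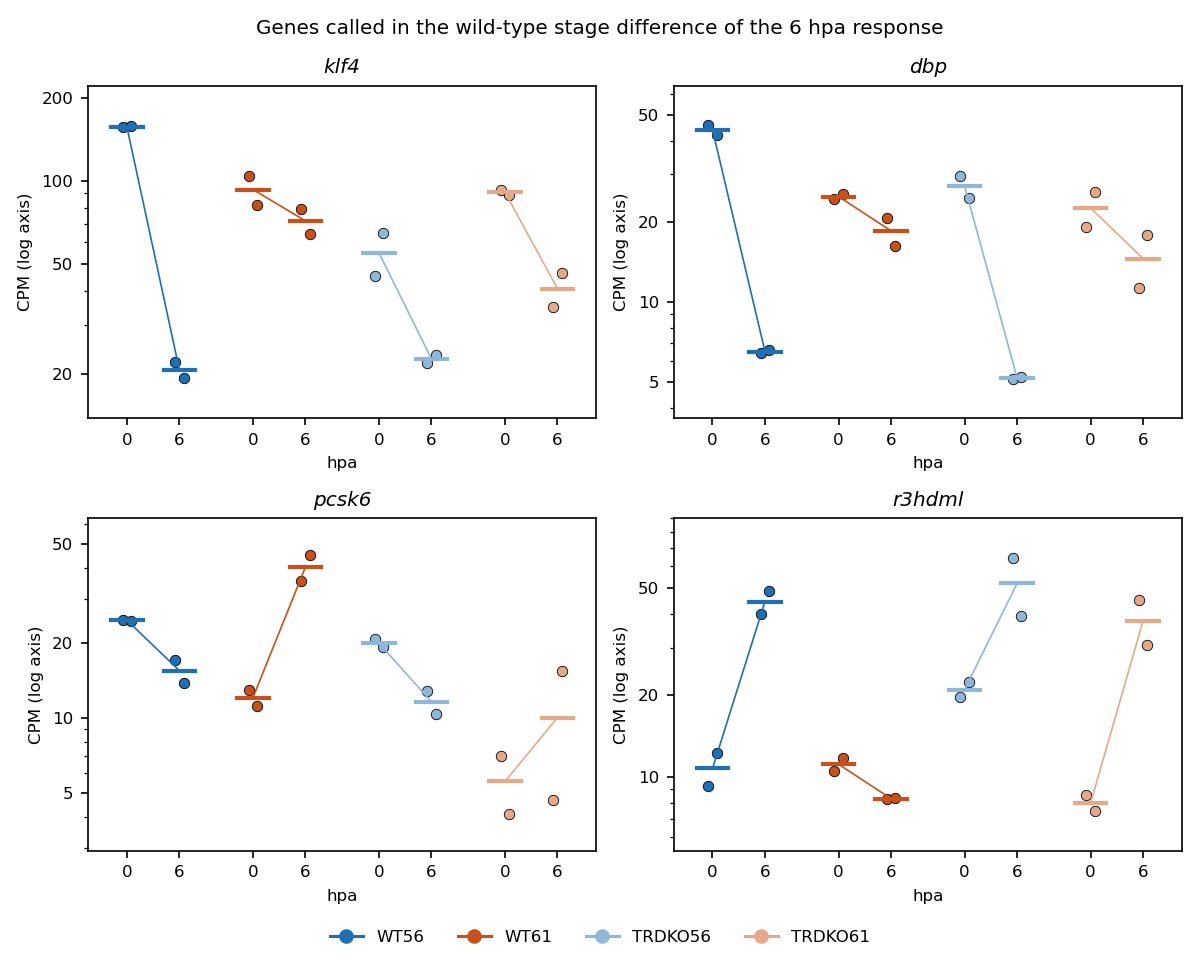
Level of *klf4*, *dbp*, *pcsk6* and *r3hdml* in CPM (log axis) at 0 and 6 hpa in WT56, WT61, TRDKO56 and TRDKO61. Points are single libraries, short bars the mean of 2 libraries, and lines join the means. In WT56 *klf4* and *dbp* drop steeply and in WT61 they do not, *pcsk6* goes down in WT56 and up in WT61, and *r3hdml* goes up in WT56, TRDKO56 and TRDKO61 but not in WT61.

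Beyond these 4, the genes with the smallest p in each direction are given as values, since their stage differences did not pass the FDR of 0.05. The 12 on each side with a mean of at least 5 CPM were taken. Of these 24 genes, 12 changed between 0 and 6 hpa in WT56 alone, 5 in WT61 alone and 7 at both stages. Of all 15909 genes tested, 3000 were called in WT56 and 1139 in WT61, with 755 in both of these counts. The 24 genes were chosen by the difference between the same changes, which favours a call at either stage. For 8 of them the stages differed more at 0 hpa than at 6 hpa, and for the other 16 more at 6 hpa. That split over all genes is not given here, and nothing is drawn from these counts. The genes that follow are those outside the clock, which is described after them.

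On the positive side, 5 genes fell in WT56 and were not called in WT61. The background potassium channel gene *kcnk5* fell in WT56 from 81.5 and 82.5 CPM to 24.2 and 28.2 CPM, while WT61 held 33.8 and 28.95 CPM and then 26.9 and 26.04 CPM. All 4 WT61 libraries were thus near the 6 hpa level of WT56, and the stage difference was 1.42 ± 0.20 (FDR 0.0681). The lysosomal amino acid exporter gene *slc66a1* fell from 15.1 and 15.02 CPM to 6.61 and 7.21 CPM in WT56, and WT61 held 25.7 and 23.7 CPM and then 27.98 and 27.9 CPM (difference 1.32 ± 0.21, FDR 0.1199). The glucose-6-phosphatase gene *g6pc.3* fell from 27.3 and 28.5 CPM to 9.08 and 9.68 CPM in WT56 and was at 36.5 and 33.7 CPM and then 32.7 and 46.8 CPM in WT61 (difference 1.77 ± 0.27, FDR 0.0878). A transmembrane serine protease gene, *tmprss2.4*, fell from 14.2 and 20.9 CPM to 3.75 and 2.47 CPM in WT56, against 18.8 and 19.6 CPM and then 19.4 and 18.4 CPM in WT61 (difference 2.44 ± 0.34, FDR 0.0681). In the last 3 genes the WT61 libraries at both times were above the WT56 libraries at 6 hpa. So it was with the unnamed locus *LOC116410829*, which fell in WT56, with 38.4 and 41.4 CPM and then 17.4 and 16.2 CPM in WT56 and 31.9 and 32.1 CPM and then 34.1 and 32.96 CPM in WT61. Genes with a numbered suffix belong to sets of related copies, between which the authors' counting could split reads, and their values are less certain.

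On the negative side, 2 matrix genes and 1 cartilage gene had fitted changes of opposite sign at the 2 stages. The hyaluronan-binding protein gene *tnfaip6*, which inflammatory cytokines induce in mammals, rose in WT56 from 36.4 and 39.6 CPM to 87.6 and 99.9 CPM. In WT61 it was already at 85.7 and 83.5 CPM at 0 hpa and stood at 74.9 and 81.8 CPM at 6 hpa, so the 6 hpa levels of both stages were close. Its stage difference was -1.402 ± 0.18 (FDR 0.0681). The cartilage intermediate layer protein gene *cilp2* rose from 15.5 and 17.2 CPM to 28.4 and 39.99 CPM in WT56 and fell from 74.8 and 69.6 CPM to 41.9 and 41.1 CPM in WT61 (difference -1.86 ± 0.25, FDR 0.0681). The elastic fibre glycoprotein gene *emilin3* was at 27.4 and 34.03 CPM and then 38.97 and 41.9 CPM in WT56 and fell from 49.2 and 45.2 CPM to 18.01 and 22.6 CPM in WT61 (difference -1.62 ± 0.23, FDR 0.0826). The fitted changes of these genes thus differed in sign between the stages.

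Another 3 genes on this side fell at stage 61 from levels that were already lower than at stage 56. The gene *otos*, which encodes otospiralin, a protein known from the mammalian inner ear, fell from 18.4 and 18.4 CPM to 5.296 and 4.45 CPM in WT61 and from 87.7 and 83.7 CPM to 58.5 and 59.5 CPM in WT56 (difference -1.35 ± 0.19, FDR 0.0681). The proteoglycan gene *bcan* (brevican) fell from 52.8 and 66.7 CPM to 21.9 and 22 CPM in WT61, while WT56 held 99.4 and 112 CPM and then 86.5 and 105 CPM (difference -1.29 ± 0.22, FDR 0.1501). The unnamed locus *LOC100497103* fell from 60.5 and 72.6 CPM to 19.4 and 15.8 CPM in WT61, against 219.6 and 205 CPM and then 158 and 149 CPM in WT56. In these 3 genes the fitted changes were negative at both stages, and the WT61 libraries at 6 hpa were the lowest of the 8.

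A transcription factor, a cytokine and a muscle gene were also on the negative side. The transcription factor gene *nfic* (nuclear factor I) rose in WT56 from 7.81 and 8.89 CPM to 32.9 and 35.95 CPM, but WT61 stood far above at both times, with 163 and 166 CPM and then 129.9 and 193 CPM (difference -2.08 ± 0.29, FDR 0.0681). The cytokine gene *il34*, a ligand of the macrophage receptor CSF1R, fell in WT61 from 62.7 and 68.1 CPM to 28.4 and 28.8 CPM, and in WT56 it had 4.31 and 7.36 CPM and then 7.4 and 9.68 CPM (difference -1.85 ± 0.32, FDR 0.1501). The Z-disc gene *pdlim3* rose in WT56 from 80.9 and 62.9 CPM to 111 and 141 CPM and fell in WT61 from 62.2 and 75.9 CPM to 41.8 and 35.5 CPM (difference -1.62 ± 0.26, FDR 0.1199). For *nfic* and *il34* the stages were already far apart at 0 hpa, by 4.31 and 3.597 on the log2 scale.

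**Figure D2:**
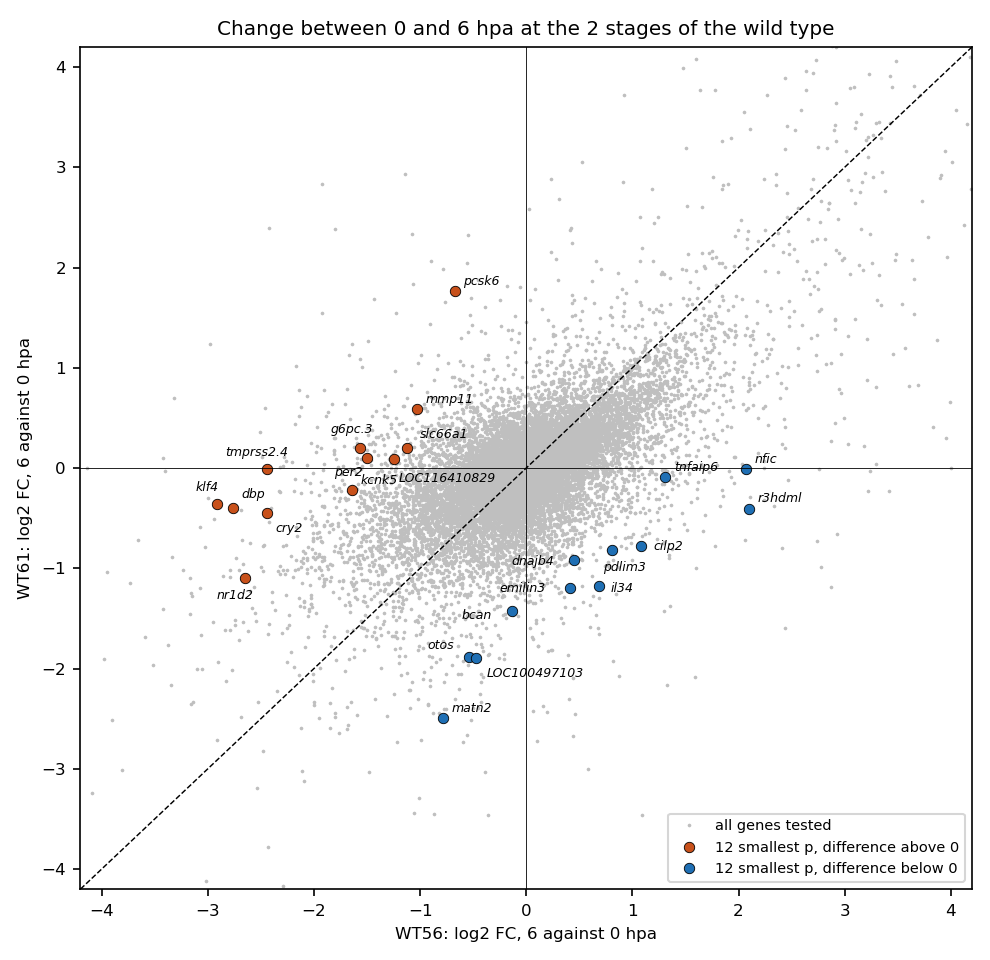
Log2 FC between 6 and 0 hpa in WT56 (x axis) and WT61 (y axis) for the 15909 genes tested, of which 78 lie outside the axes. Coloured points are the 12 genes with the smallest p of the stage difference on each side, and the dashed line marks equal changes. Genes on the positive side lie above the line, most of them at a negative value for WT56 and near 0 for WT61, and *pcsk6* is the highest of them.

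Clock genes were conspicuous among the genes of the positive side, and a list of them was therefore drawn up after these values were seen. A vertebrate clock is a loop in which the activators CLOCK, NPAS2 and ARNTL drive the period and cryptochrome genes, whose products repress them, while REV-ERB proteins repress *arntl*. Of 24 clock genes tested, 13 fell (8.66% of all genes) and 3 rose (10.2%) in WT56. In WT61, 3 fell (3.06%) and 1 rose (4.1%). The stage difference was called for 1 of them, *dbp*, by edgeR and for 7 by DESeq2. At an unadjusted p under 0.05 it was positive for 11 (6.01% of all genes) and negative for 3 (5.47%). Over the 24 genes the median change was -1.05 in WT56 and -0.12 in WT61, and the median stage difference was 0.71, against -0.02 over all genes. It ran from 0.24 to 0.81 with 1 library left out, lowest without replicate 2 of WT61 at 0 hpa. Because the list was chosen with its values known, these counts describe the genes and support nothing further.

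The repressor genes *cry2*, *per1* and *per2* were high in WT56 at 0 hpa and low in its 6 hpa libraries. In WT56 the fitted change was also negative for *cry1* and *per3*, but not for *cry4*. The cryptochrome gene *cry2* fell from 57.3 and 69.6 CPM to 13.3 and 9.78 CPM in WT56 and stood at 22.1 and 25.02 CPM and then 17.9 and 16.2 CPM in WT61 (difference 1.997 ± 0.26, FDR 0.0681). The period gene *per1* fell from 105 and 142 CPM to 20.8 and 28.3 CPM in WT56, against 25.7 and 14.8 CPM and then 21.4 and 18.5 CPM in WT61 (difference 2.33 ± 0.40, FDR 0.1501). Its relative *per2* fell from 42.7 and 54.6 CPM to 17.96 and 16 CPM in WT56, against 24.1 and 26.1 CPM and then 30.2 and 22.99 CPM (difference 1.603 ± 0.26, FDR 0.1199). The WT61 libraries of *per1* at both times were thus near the 6 hpa level of WT56, and those of *cry2* and *per2* lay between its levels at the 2 times.

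The REV-ERB gene *nr1d2* fell at both stages, from 116 and 142 CPM to 21.5 and 19.5 CPM in WT56 and from 49.1 and 53.7 CPM to 22.1 and 25.4 CPM in WT61 (difference 1.55 ± 0.21, FDR 0.0681). The activator gene *arntl* (BMAL1) rose from 17.3 and 10.4 CPM to 72.3 and 60.9 CPM in WT56 and from 26.6 and 24.9 CPM to 53.4 and 38.8 CPM in WT61 (difference -1.33 ± 0.32, FDR 0.216). In WT56 this activator thus moved against *nr1d2*, *cry2*, *per1* and *per2*, and the fitted changes were smaller in size at stage 61. The relatives of *dbp* followed it, with a log2 FC of -1.69 in WT56 and -0.68 in WT61 for *tef* and of -2.56 and -1.44 for *hlf*, each of them called. The activator gene *clock* itself had 32.3 and 26.7 CPM and then 30.2 and 28.4 CPM in WT56 and 27.9 and 33.7 CPM and then 29.5 and 25.96 CPM in WT61, and neither change was called. The kinase genes *csnk1d* and *csnk1e*, which act on period proteins, had log2 FCs between -0.17 and 0.15, none called.

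At 24 hpa *per1* had 27.3 and 23.02 CPM in WT56 and 7.56 and 13.2 CPM in WT61. Its relative *per2* had 26.7 and 26.6 CPM and 20.5 and 21.8 CPM, and *dbp* had 12.6 and 10.9 CPM and 16.8 and 22.6 CPM. None of these 3 genes was back at its 0 hpa level in WT56. By contrast *arntl* was at 25.9 and 27.2 CPM in WT56 and 25.9 and 27.4 CPM in WT61, near its 0 hpa level in WT61 and above it in WT56. The hour at which each tail was taken is not given in the sources used here, and its part in these values was not tested.

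**Figure D3:**
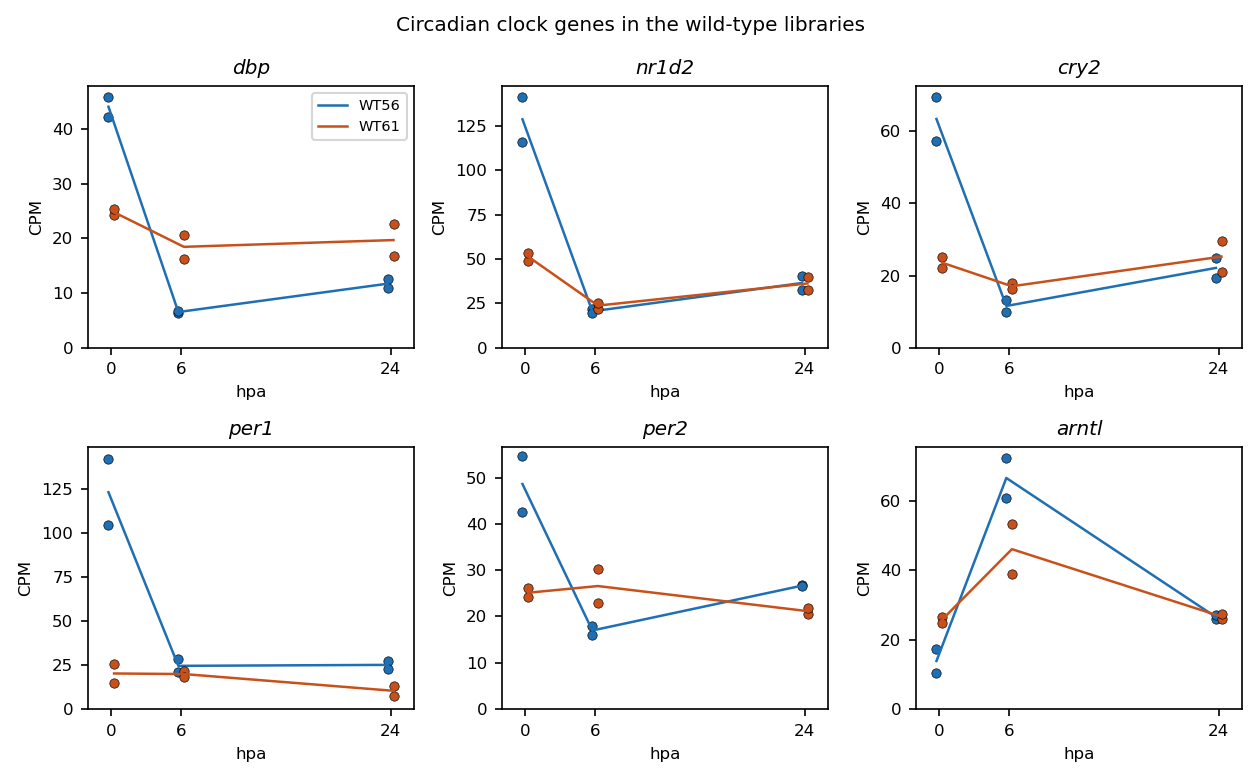
Level in CPM of 6 clock genes in the WT56 and WT61 libraries at 0, 6 and 24 hpa. Points are single libraries and lines join the means of 2 libraries. In WT56 the first 5 genes start high and are low by 6 hpa and *arntl* does the reverse, whereas the WT61 lines are flatter.

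Many immediate early genes were lower at 6 hpa than at 0 hpa, and by their fitted values the drop was mostly larger in WT56. Of 44 tested, 21 fell (8.66% of all genes) and 0 rose (10.2%) in WT56 by edgeR. In WT61, 8 fell (3.06%) and 1 rose (4.1%). The fitted stage difference was positive for 38 and negative for 6, and at an unadjusted p under 0.05 it was positive for 10 (6.01% of all genes) and negative for 2 (5.47%). Their median change was -0.63 in WT56 and -0.30 in WT61, and their median stage difference was 0.61 (0.28 to 0.79 with 1 library left out, lowest without replicate 2 of WT61 at 6 hpa). Only *klf4* was called by edgeR, and *klf4* and *nr4a2* by DESeq2. The other members named here were chosen after their values were seen.

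The AP-1 subunit gene *jun* fell from 258 and 399 CPM to 72.03 and 84.2 CPM in WT56 and from 97.98 and 86.3 CPM to 44.6 and 51.5 CPM in WT61, a difference of 1.15 ± 0.30 (FDR 0.249). Its partner *fosb* fell from 242 and 285 CPM to 4.34 and 19.8 CPM in WT56, and had 30.2 and 6.23 CPM and then 3.18 and 6.68 CPM in WT61 (difference 2.59 ± 1.12, FDR 0.434). The orphan nuclear receptor gene *nr4a2* fell from 78.8 and 93.5 CPM to 4.44 and 6.42 CPM in WT56 and from 14.3 and 6.28 CPM to 2.37 and 2.97 CPM in WT61 (difference 2.08 ± 0.55, FDR 0.256). In each of these 3 genes both WT56 libraries at 0 hpa were the highest of the 8, and the stages were closer to each other at 6 hpa. The zinc finger gene *egr1* fell from 457 and 620.2 CPM to 34.9 and 121 CPM in WT56 and had 149 and 84.03 CPM and then 43.7 and 64.5 CPM in WT61. The gene *zfp36*, whose product destabilises cytokine mRNAs, fell from 823 and 1028 CPM to 165 and 321 CPM in WT56 and had 451 and 237 CPM and then 189.8 and 332.3 CPM in WT61. The flow-responsive *klf2* fell at both stages, from 954 and 1087 CPM to 22 and 56.8 CPM in WT56 and from 419 and 143 CPM to 13.2 and 25.8 CPM in WT61. In *fosb*, *nr4a2*, *egr1*, *zfp36* and *klf2* alike, replicate 2 of WT61 at 0 hpa was well below replicate 1. For *klf2* the stage difference was 0.86 ± 0.80 (FDR 0.704). The matricellular gene *ccn2* was an exception on the negative side, with 327 and 344 CPM and then 363 and 529 CPM in WT56 and 279 and 285 CPM and then 186 and 202 CPM in WT61 (difference -0.93 ± 0.27, FDR 0.299).

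In skeletal muscle genes the median change was positive in WT56 and negative in WT61. The fitted stage difference was negative for 66 of 70 contractile and sarcomere genes, with a median of -0.78 (-1.21 to -0.47 with 1 library left out, largest without replicate 1 of WT61 at 6 hpa and smallest without replicate 2). None was called by edgeR and 6, all lower, by DESeq2, and at an unadjusted p under 0.05 there were 21 lower (5.47% of all genes) and 0 higher (6.01%). In WT56, 9 of the 70 rose (10.2% of all genes) and 2 fell (8.66%) between 0 and 6 hpa, with a median of 0.39. In WT61, 1 rose (4.1%) and 5 fell (3.06%), with a median of -0.43. Summed over 73 genes, muscle transcripts took 48840 and 66440 CPM in WT56 at 0 hpa and 58310 and 69560 CPM at 6 hpa. In WT61 they took 35030 and 32110 CPM at 0 hpa and 30460 and 22670 CPM at 6 hpa. The WT56 sums overlapped between the times, those of WT61 did not, and every WT61 sum was below every WT56 sum.

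The Kelch gene *klhl41*, needed for thin filaments, rose from 85.9 and 95.7 CPM to 133 and 157 CPM in WT56 and was at 80.03 and 112 CPM and then 65.1 and 54.1 CPM in WT61 (difference -1.35 ± 0.26, FDR 0.158). The actin-binding repeat gene *xirp1* rose from 57.8 and 59.5 CPM to 109.8 and 186 CPM in WT56, against 78.9 and 143 CPM and then 64.8 and 52.99 CPM in WT61 (difference -2.23 ± 0.44, FDR 0.173). Both were called in WT56 and not in WT61. Further members, chosen after their values were seen, include the muscle atrophy ligase gene *fbxo32*. It rose from 46.3 and 72.7 CPM to 112 and 215 CPM in WT56, and WT61 held 297 and 299 CPM and then 171 and 228 CPM (difference -2.04 ± 0.46, FDR 0.191). The desmin gene *des.2* fell in WT61 from 129 and 148 CPM to 56.1 and 23.7 CPM and held 395 and 512 CPM and then 473 and 507 CPM in WT56 (difference -1.89 ± 0.48, FDR 0.235). The calcium pump gene *atp2a1* stood at 1264 and 1275 CPM and then 2106 and 2445 CPM in WT56 and at 1096 and 1085 CPM and then 1162 and 575 CPM in WT61, and neither change was called. In WT61 replicate 2 at 6 hpa was the low one for this gene.

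Of 22 myogenic regulators and satellite cell genes, 3 rose (10.2% of all genes) and 3 fell (8.66%) in WT56. In WT61, 2 rose (4.1%) and 3 fell (3.06%). Between the stages the fitted difference was negative for 16, with a median of -0.43 (-0.68 to -0.13 with 1 library left out, nearest to 0 without replicate 2 of WT61 at 0 hpa). At an unadjusted p under 0.05 it was positive for 2 (6.01% of all genes) and negative for 3 (5.47%). None was called by edgeR, and *myod1* and *musk* were by DESeq2. The myogenic master gene *myod1* rose in WT56 from 5.61 and 3.37 CPM to 13.02 and 17.3 CPM and was at 7.72 and 5.403 CPM and then 3.801 and 4.53 CPM in WT61 (difference -2.29 ± 0.43, FDR 0.157). The gene *musk*, the receptor kinase of the neuromuscular junction, rose from 9.71 and 9.504 CPM to 17.4 and 31.4 CPM in WT56, against 10.5 and 16.3 CPM and then 9.72 and 7.66 CPM in WT61 (difference -1.95 ± 0.46, FDR 0.202).

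Notochord and cartilage genes fell in number at both stages, with the larger median fall at stage 61. Of 28 tested, 9 fell (8.66% of all genes) and 1 rose (10.2%) in WT56. In WT61, 15 fell (3.06%) and 0 rose (4.1%) by edgeR. The median change was -0.69 in WT56 and -1.07 in WT61. The fitted stage difference was negative for 20 of 28, with a median of -0.62 (-0.70 to -0.44 with 1 library left out). At an unadjusted p under 0.05 it was negative for 12 (5.47% of all genes) and positive for 1 (6.01%). None was called by edgeR, and 4 were by DESeq2, *chad*, *matn2*, *col9a1* and *col9a2*. The summed level of 33 genes went from 2795 and 2911 CPM to 1689 and 1601 CPM in WT56, and from 1333 and 1620 CPM to 751 and 584 CPM in WT61. At each stage the 6 hpa libraries were the lower ones.

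The matrilin gene *matn2* had the smallest p of this list. It fell from 39.8 and 45.4 CPM to 20.7 and 28.2 CPM in WT56 and from 61.3 and 72.4 CPM to 12.5 and 10.8 CPM in WT61 (difference -1.71 ± 0.26, FDR 0.0878). Chondroadherin, *chad*, a cartilage matrix protein, fell in WT61 from 100 and 126 CPM to 35.3 and 25.7 CPM, and WT56 held 118 and 151 CPM and then 94.1 and 114 CPM (difference -1.51 ± 0.29, FDR 0.158). The starting levels of *chad* overlapped between the stages, those of *matn2* were higher in WT61, and in both genes the WT61 libraries at 6 hpa were the lowest. The collagen IX genes, chosen after their values were seen, began at different levels. The gene *col9a1* fell from 415 and 413 CPM to 226 and 241 CPM in WT56 and from 95.3 and 126 CPM to 25.4 and 14.5 CPM in WT61 (difference -1.62 ± 0.34, FDR 0.187). Its partner *col9a2* had 178 and 169 CPM and then 107 and 95.8 CPM in WT56 and fell from 39.6 and 49.03 CPM to 10.97 and 5.27 CPM in WT61 (difference -1.63 ± 0.37, FDR 0.197). The notochord morphogen gene *shh* fell in WT61 from 5.12 and 9.396 CPM to 2.24 and 2.56 CPM and stood at 12.2 and 10.4 CPM and then 6.71 and 10.9 CPM in WT56 (difference -1.22 ± 0.49, FDR 0.406). The chondrocyte transcription factor gene *sox9*, which the study follows in wound healing, fell in WT56 from 18.6 and 18.4 CPM to 12.2 and 10.6 CPM. It was at 7.34 and 8.22 CPM and then 7.66 and 5.44 CPM in WT61, and its stage difference was 0.48 ± 0.30 (FDR 0.5602), so that a difference between the stages was not shown.

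Cell cycle genes had lower medians in WT61 already at 0 hpa, and more of them fell in WT56. Of 51 DNA replication genes, 20 fell (8.66% of all genes) and 0 rose (10.2%) in WT56. In WT61, 1 fell (3.06%) and 0 rose (4.1%) by edgeR. Their stage difference was positive for 46, with a median of 0.44 (0.18 to 0.70 with 1 library left out, lowest without replicate 2 of WT56 at 6 hpa and highest without replicate 1). At an unadjusted p under 0.05 it was positive for 8 (6.01% of all genes) and negative for 0 (5.47%), with none called by edgeR or DESeq2. Of 54 mitosis genes, 8 fell in WT56 (8.66% of all genes) and 1 in WT61 (3.06%). Their stage difference was positive for 49, with a median of 0.39 (0.06 to 0.87 without the same libraries). At an unadjusted p under 0.05 it was positive for 4 (6.01% of all genes) and negative for 0 (5.47%). At 0 hpa the median log2 difference between WT61 and WT56 was -0.89 for the replication genes and -2.25 for the mitosis genes, and at 6 hpa it was -0.47 and -1.78.

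The replication fork gene *cdc45* fell in WT56 from 6.11 and 7.36 CPM to 3.06 and 1.68 CPM and was at 1.06 and 1.23 CPM and then 1.37 and 1.32 CPM in WT61 (difference 1.71 ± 0.53, FDR 0.319). The gene *uhrf1*, which maintains DNA methylation at the fork, fell from 23.9 and 17.2 CPM to 5.72 and 5.63 CPM in WT56 and from 8.98 and 9.81 CPM to 5.17 and 4.203 CPM in WT61 (difference 0.90 ± 0.32, FDR 0.356). The spindle kinesin gene *kif11* fell from 41.2 and 44.5 CPM to 29.8 and 20.6 CPM in WT56, and WT61 held 8.11 and 7.93 CPM and then 9.66 and 9.97 CPM (difference 1.07 ± 0.27, FDR 0.228). The WT61 libraries of these 3 genes were below or at the 6 hpa level of WT56 already at 0 hpa, *uhrf1* excepted. Among the 74 cytosolic ribosomal protein genes the stage difference was positive for 71, but its median was 0.11, no member reached an unadjusted p of 0.05, and the median ran from -0.20 to 0.37 without replicate 2 and without replicate 1 of WT56 at 0 hpa.

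Heat shock genes had positive median changes at both stages, 0.47 in WT56 and 0.21 in WT61, and their stage differences were mostly negative. Of 47 heat shock and chaperone genes, 20 rose (10.2% of all genes) and 2 fell (8.66%) in WT56. In WT61, 9 rose (4.1%) and 1 fell (3.06%). The fitted stage difference was negative for 38, with a median of -0.27 (-0.47 to -0.20 with 1 library left out, largest without replicate 1 of WT56 at 0 hpa). At an unadjusted p under 0.05 it was negative for 10 (5.47% of all genes) and positive for 3 (6.01%). By edgeR none was called, and *dnajb4* was by DESeq2. The co-chaperone gene *dnajb4* fell in WT61 from 29.9 and 35.2 CPM to 17.8 and 16.2 CPM and was at 36.9 and 30.97 CPM and then 46.5 and 47.01 CPM in WT56 (difference -1.37 ± 0.20, FDR 0.0878). The small heat shock gene *hsp30e* rose from 0.2002 and 0.9198 CPM to 34.1 and 28.4 CPM in WT56 and from 0.483 and 0.587 CPM to 8.41 and 13.8 CPM in WT61. Its 0 hpa values rest on 2 and 3 counts in WT56 and 5 and 10 counts in WT61, so no fold is given. The chaperone gene *hsp90aa1.2* rose in WT56 from 1.502 and 1.53 CPM to 4.14 and 6.22 CPM and stood at 0.869 and 1.41 CPM and then 0.748 and 0.577 CPM in WT61 (difference -2.55 ± 0.60, FDR 0.202). Members chosen after their values were seen went both ways. The inducible *hsp70* rose from 2.803 and 1.84 CPM to 92.6 and 66.8 CPM in WT56 and from 2.41 and 3.05 CPM to 30.4 and 43.6 CPM in WT61 (difference -1.23 ± 0.43, FDR 0.355). Its copy *hspa1b* rose from 3.104 and 2.76 CPM to 32.5 and 29.9 CPM in WT56 and from 0.869 and 0.705 CPM to 16.9 and 18.7 CPM in WT61 (difference 1.15 ± 0.32, FDR 0.273). The 2 genes are related copies and their reads may be split.

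Cytokines that signal through gp130 and STAT3 are among the first signals of wound healing. Of 22 genes of this pathway, 9 rose (10.2% of all genes) and 1 fell (8.66%) in WT56. In WT61, 4 rose (4.1%) and 0 fell (3.06%) by edgeR. By stage, the fitted difference was negative for 17, with a median of -0.23 (-0.35 to -0.10, lowest without replicate 2 of WT61 at 6 hpa and highest without replicate 2 of WT56 at 6 hpa). At an unadjusted p under 0.05 it was negative for 4 (5.47% of all genes) and positive for 0 (6.01%). By edgeR none was called, and *ctf1* was by DESeq2. The cytokine gene *ctf1* (cardiotrophin 1) rose in WT56 from 33.2 and 30.4 CPM to 80.9 and 94.5 CPM, against 24.1 and 24.2 CPM and then 34.1 and 30.3 CPM in WT61 (difference -1.02 ± 0.19, FDR 0.157). The gp130 gene itself, *il6st*, rose from 34.04 and 35.6 CPM to 142 and 194 CPM in WT56 and from 53.1 and 55.3 CPM to 118 and 152 CPM in WT61 (difference -0.94 ± 0.26, FDR 0.285). Leptin, *lep*, rose from 3.904 and 3.68 CPM to 77.95 and 156 CPM in WT56 and from 7.05 and 5.11 CPM to 35.2 and 82.8 CPM in WT61 (difference -1.62 ± 0.73, FDR 0.4397). In these 3 genes the libraries at 6 hpa were above those at 0 hpa at both stages. The gene *il11* had 0 and 0 counts in WT56 at 0 hpa and 6.91 and 17.2 CPM at 6 hpa. In WT61 it had 1 and 1 counts at 0 hpa and 3.68 and 13.02 CPM at 6 hpa. No fold or stage difference is given for it. The 6 hpa libraries of the 2 stages overlapped for *lep* and for *il11*.

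Of the 12 genes that were named with the series for the 6 hpa response, 4 rose (10.2% of all genes) and 2 fell (8.66%) in WT56. By edgeR 3 rose (4.1%) and 0 fell (3.06%) in WT61. None of the 12 had a stage difference called by edgeR or DESeq2. The interstitial collagenase gene *mmp1* rose from 209 and 238 CPM to 1585 and 2435 CPM in WT56 and from 482 and 541 CPM to 999 and 2964 CPM in WT61, and its stage difference of -1.195 ± 0.62 had a 95% interval of -2.61 to 0.22 (FDR 0.491). The NF-kB inhibitor gene *nfkbia* fell in WT56 from 349 and 423 CPM to 101 and 150.1 CPM and had 226 and 126 CPM and then 119 and 183 CPM in WT61 (difference 1.42 ± 0.46, FDR 0.339). The death receptor gene *fas* rose in WT56 from 39.8 and 40.5 CPM to 68.5 and 109 CPM, and WT61 had 55.3 and 50.7 CPM and then 66.7 and 119 CPM (difference -0.32 ± 0.41, 95% interval -1.26 to 0.62, FDR 0.786). In all 3 genes the 6 hpa libraries of the 2 stages overlapped. The apoptosis genes *bax* and *casp9* had stage differences of -0.12 ± 0.26 and -0.08 ± 0.24, *traf1* and *lmnb2* of 0.78 ± 0.38 and 0.59 ± 0.34, and *prf1* of -0.02 ± 0.69, with FDRs between 0.4598 and 0.995. None of these 5 was called at either stage. The cytotoxic lymphocyte gene *ctsw* was at or below 0.601 CPM in all 8 libraries and was not tested. The study took *lep*, *il11*, *mmp1* and *sox9* as genes already known to be regulated in wound healing. It also describes *lmnb2*, *traf1*, *nfkbia*, *prf1* and *ctsw* as inhibited in the nonregenerative animals, in a comparison that may not be the stage difference used here. The fitted stage differences of *nfkbia*, *traf1* and *lmnb2* were positive, that of *prf1* was -0.02, and none was called. The study describes all these genes in libraries that include the present ones, so their directions here are not independent evidence.

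Inflammatory genes showed no common direction between the stages. Of 58 cytokine, chemokine and receptor genes, 18 rose (10.2% of all genes) and 2 fell (8.66%) in WT56. In WT61, 13 rose (4.1%) and 3 fell (3.06%). Between the stages the fitted difference was positive for 32 and negative for 26, with a median of 0.09 (-0.11 to 0.18 with 1 library left out, below 0 without replicate 1 of WT56 at 0 hpa). The receptor gene *il17ra* had 16.5 and 16.6 CPM and then 12.04 and 10.3 CPM in WT56 and 17.2 and 15.4 CPM and then 21.3 and 27.9 CPM in WT61 (difference 1.18 ± 0.26, FDR 0.1903). Among 32 leukocyte markers 17 rose (10.2% of all genes) and 1 fell (8.66%) in WT56. In WT61, 11 rose (4.1%) and 0 fell (3.06%) by edgeR. Summed over 35 markers, their level went from 912 and 850 CPM to 1342 and 1789 CPM in WT56, and from 1393 and 1206 CPM to 1648 and 2779 CPM in WT61. Their median stage difference was 0.04, with a range of -0.43 to 0.31 when 1 library was left out. The lowest value came without replicate 2 of WT61 at 6 hpa and the highest without replicate 1 of it, and these replicates stood far apart in the sum. At both stages the sums at 6 hpa were above those at 0 hpa. At an unadjusted p under 0.05 the stage difference was positive for 2 of the 32 markers (6.01% of all genes) and negative for 1 (5.47%). The antigen presentation gene *cd74* was the 1 marker that fell in WT56, from 277 and 224 CPM to 101 and 92.9 CPM. In WT61 *cd74* was at 189 and 149.6 CPM and then 109 and 153 CPM (difference 1.02 ± 0.29, FDR 0.286). The marker gene *lcp1* had the next smallest p and went the other way. It rose in WT56 from 54.4 and 46.9 CPM to 113 and 147.5 CPM. In WT61 *lcp1* had 164 and 149 CPM and then 185 and 254 CPM (difference -0.85 ± 0.28, FDR 0.341). The 14 NADPH oxidase genes had a median change of 1.32 in WT56 and 1.35 in WT61, with 7 rising at each stage (10.2% and 4.1% of all genes). Their median stage difference was 0.04 (-0.48 to 0.53 without replicate 2 and without replicate 1 of WT61 at 6 hpa).

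Thyroid hormone genes had a higher median in WT61 already at 0 hpa, by 0.64 on the log2 scale, and at 6 hpa by 0.91. Of 30 genes of hormone action, 4 rose (10.2% of all genes) and 6 fell (8.66%) in WT56. In WT61, 3 rose (4.1%) and 0 fell (3.06%) by edgeR. The fitted stage difference was positive for 19, with a median of 0.37 (0.25 to 0.46 with 1 library left out). At an unadjusted p under 0.05 it was positive for 8 (6.01% of all genes) and negative for 2 (5.47%). None was called by edgeR, and *mmp11*, *bcl6* and *dio3* were by DESeq2. Stromelysin 3, *mmp11*, a matrix protease that T3 induces in the resorbing tail, fell in WT56 from 6.21 and 5.21 CPM to 2.96 and 2.77 CPM and rose in WT61 from 322 and 334 CPM to 505 and 466 CPM. Its stage difference was 1.61 ± 0.24 (FDR 0.0826), and the stages were 5.79 apart on the log2 scale at 0 hpa. The gene *dio3*, the deiodinase that inactivates T3, rose in WT56 from 59.8 and 71.1 CPM to 119 and 133 CPM and was at 127 and 99.1 CPM and then 86.4 and 102 CPM in WT61 (difference -1.21 ± 0.24, FDR 0.174). The repressor gene *bcl6*, chosen after its values were seen, fell in WT56 from 87.9 and 95.4 CPM to 38.9 and 30.8 CPM and was at 460 and 399 CPM and then 346 and 316 CPM in WT61 (difference 1.04 ± 0.23, FDR 0.187). The WT61 libraries of *dio3* overlapped between the times, and those of *bcl6* were all above the WT56 libraries.

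The receptor genes themselves were not called between 0 and 6 hpa at either stage. The gene *thrb* stood at 8.91 and 12.3 CPM and then 8.39 and 4.74 CPM in WT56 and at 219 and 213 CPM and then 152 and 215 CPM in WT61, a stage difference of 0.42 ± 0.40 (95% interval -0.48 to 1.32, FDR 0.705). For *thra* the levels were 6.41 and 5.52 CPM and then 5.72 and 4.05 CPM in WT56 and 13.9 and 13.3 CPM and then 13.02 and 13.8 CPM in WT61, a difference of 0.31 ± 0.31 (95% interval -0.39 to 1.01, FDR 0.718). The direct target genes *klf9* and *thibz* had stage differences of -1.002 ± 0.62 and -0.78 ± 0.79, and both were higher in WT61 at both times (FDR at 6 hpa 0.0117 and 2.81e-05). Their intervals, -2.43 to 0.42 and -2.58 to 1.01, include 0, and *thibz* was between 0.296 and 1.48 CPM in WT56.

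Genes of patterning signals had no single direction. Of 60 Wnt pathway genes, 13 fell (8.66% of all genes) and 1 rose (10.2%) in WT56. In WT61, 3 fell (3.06%) and 1 rose (4.1%). The fitted stage difference was positive for 34, with a median of 0.07 (-0.03 to 0.12 with 1 library left out, below 0 without replicate 1 of WT61 at 0 hpa). At an unadjusted p under 0.05 it was positive for 10 (6.01% of all genes) and negative for 2 (5.47%). The ligand gene *wnt7c* fell in WT56 from 18.02 and 22.99 CPM to 9.67 and 6.32 CPM and was at 15.3 and 14.7 CPM and then 13.3 and 17.4 CPM in WT61 (difference 1.39 ± 0.34, FDR 0.2196). Its relative *wnt7b* fell from 18.3 and 22.1 CPM to 7.301 and 3.16 CPM in WT56 and was at 7.92 and 9.69 CPM and then 10.3 and 5.44 CPM in WT61 (difference 1.79 ± 0.56, FDR 0.326). Both WT61 pairs overlapped between the times. Of 43 Notch and Hedgehog genes the stage difference was positive for 25, with a median of 0.20 (0.08 to 0.21, lowest without replicate 1 of WT61 at 6 hpa). At an unadjusted p under 0.05, 7 were positive (6.01% of all genes) and 1 negative (5.47%). The receptor gene *notch1* fell in WT56 from 46.7 and 52.7 CPM to 28.1 and 27.95 CPM and was at 61.6 and 72.4 CPM and then 64.3 and 56.4 CPM in WT61 (difference 0.69 ± 0.20, FDR 0.296). The activin subunit gene *inhbb* fell in WT56 from 7.71 and 7.97 CPM to 0.592 and 0.395 CPM and stood at 21.1 and 12.3 CPM and then 8.599 and 7.33 CPM in WT61 (difference 2.92 ± 0.52, FDR 0.1501). Its WT56 values at 6 hpa rest on 6 and 4 counts, so the size of this difference is uncertain. In the lists of FGF, BMP and TGF-beta, retinoic acid and Hox genes the median stage difference lay between 0.01 and 0.07, and with 1 library left out the FGF, retinoic acid and Hox medians took either sign. The retinoic acid hydroxylase gene *cyp26a1* fell at both stages, from 216 and 148 CPM to 0.888 and 0.395 CPM in WT56 and from 38.04 and 21.7 CPM to 0.561 and 0.165 CPM in WT61 (difference 1.93 ± 0.98, FDR 0.4803). Its 6 hpa levels, at most 0.888 CPM, make the size of that difference uncertain too.

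Skin genes had mostly positive stage differences. Of 49 epidermal and keratin genes, 4 rose (10.2% of all genes) and 6 fell (8.66%) in WT56. In WT61, 8 rose (4.1%) and 0 fell (3.06%) by edgeR. By stage, the fitted difference was positive for 34, with a median of 0.30 (0.09 to 0.52 with 1 library left out, lowest without replicate 2 of WT56 at 6 hpa and highest without replicate 1). At an unadjusted p under 0.05 it was positive for 7 (6.01% of all genes) and negative for 2 (5.47%). The epidermal differentiation factor gene *znf750* fell in WT56 from 59.8 and 64.4 CPM to 38.9 and 32.4 CPM and was at 67.8 and 63.1 CPM and then 74.5 and 83.1 CPM in WT61 (difference 1.08 ± 0.20, FDR 0.1501). The simple keratin gene *krt8.1* had 672 and 834 CPM and then 1046 and 1357 CPM in WT56 and 913 and 999 CPM and then 656 and 817 CPM in WT61 (difference -1.03 ± 0.30, FDR 0.299). The WT61 libraries of *znf750* were above both WT56 libraries at 6 hpa, and those of *krt8.1* at 6 hpa were below them. Summed epidermal transcripts took 17250 to 25500 CPM in the WT56 libraries and 17910 to 20630 CPM in those of WT61, with overlapping ranges.

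Markers of the remaining tissues had mostly negative stage differences. The fitted value was negative for 25 of 35 neural markers (median -0.26, -0.64 to -0.07 with 1 library left out), for 19 of 24 endothelial markers (median -0.30, -0.52 to -0.05) and for 13 of 16 globin and erythroid genes (median -0.45). Neural and endothelial medians were nearest to 0 without replicate 2 of WT56 at 6 hpa. None was called by edgeR and 1, *vim.2*, by DESeq2. At an unadjusted p under 0.05, 5, 4 and 0 of them were lower (5.47% of all genes) and 0 higher (6.01%). The intermediate filament gene *vim.2* fell in WT61 from 490.1 and 512 CPM to 253 and 188 CPM and held 563 and 671 CPM and then 668 and 719 CPM in WT56 (difference -1.33 ± 0.27, FDR 0.173). The vascular peptide gene *apln* fell in WT61 from 17.1 and 17.2 CPM to 5.86 and 4.04 CPM and had 12.4 and 14.7 CPM and then 8.49 and 10.8 CPM in WT56 (difference -1.29 ± 0.33, FDR 0.2301). Summed neural markers took 3286 to 4007 CPM in the WT56 libraries and 2011 to 2418 CPM in those of WT61, and summed endothelial markers 507 to 668 CPM and 553 to 717 CPM. Summed over 18 globin and erythroid genes, blood transcripts took 2956 and 5307 CPM in WT56 at 0 hpa, 4878 and 9080 CPM at 6 hpa, and in WT61 3189 and 1895 CPM at 0 hpa and 1515 and 5245 CPM at 6 hpa. The replicates of a condition were thus far apart in blood transcripts, and the globin median ran from -1.73 to 0.15 without replicate 2 and without replicate 1 of WT61 at 6 hpa. The part of blood, muscle and leukocyte content in the stage differences of other genes was not tested.

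**Figure D4:**
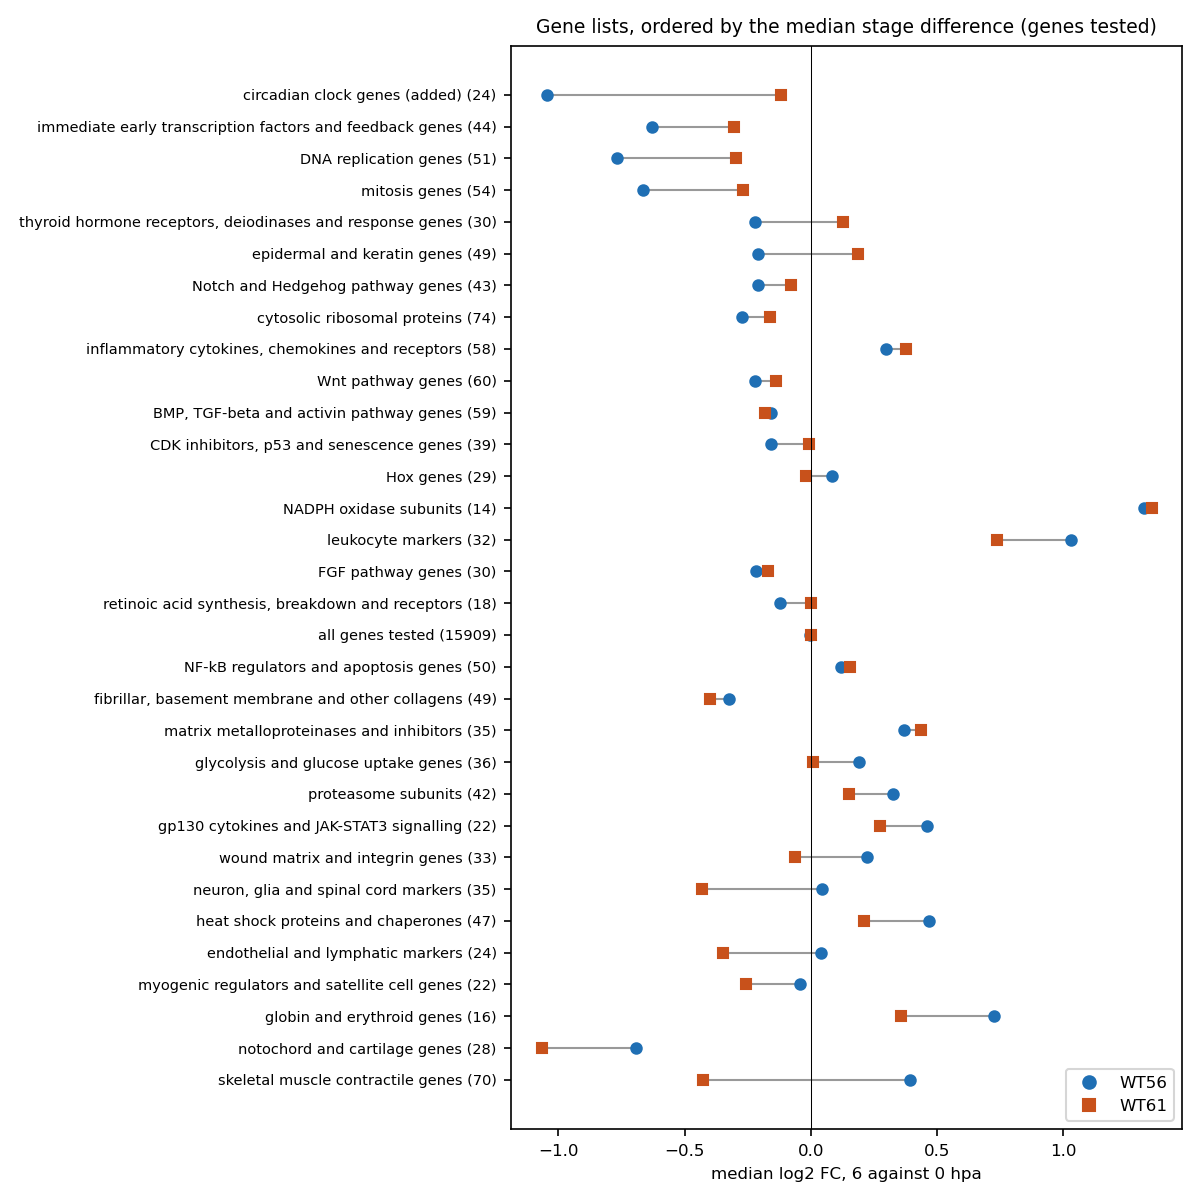
Median log2 FC between 6 and 0 hpa in WT56 (circles) and WT61 (squares) for the gene lists, the added clock list and all genes tested, ordered by the median stage difference, with the number of genes tested in brackets. The clock, immediate early and replication lists lie at the top with the deeper fall in WT56, and the muscle list at the bottom with medians of 0.39 and -0.43.

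The TRDKO tadpoles, measured in other libraries, allowed each stage difference to be looked at in tails without thyroid hormone receptors. Counts of the receptor genes do not show whether a receptor is made, and in the 8 TRDKO libraries *thrb* was at 20.7 and 28.8 CPM and then 22.2 and 13.7 CPM at stage 56 and 94.3 and 112 CPM and then 68.2 and 61.4 CPM at stage 61. Transcripts of *thra* were at 5.93 and 7.36 CPM and then 6.07 and 5.87 CPM at stage 56 and 9.42 and 10.6 CPM and then 7.098 and 8.11 CPM at stage 61. Adult wild-type frogs were bought from a supplier and then kept in the laboratory. The TRDKO tadpoles came from matings of mutant frogs, so genotype and origin cannot be told apart. Of 16042 genes tested in TRDKO, 5 had a stage difference (0.0312%), and none of the 5 is among the 4 of the wild type. Across 15562 genes tested in both genotypes the wild-type and TRDKO stage differences had a Pearson correlation of 0.423, a description over genes that share libraries. Of the 24 genes that led in the wild type, 22 had the same sign in TRDKO, and 16 of these reached an unadjusted p under 0.05 there. Over all 16042 genes tested in TRDKO, 1325 reached that limit with either sign. The share of all genes with the same sign in both genotypes is not given here. The median TRDKO value was 0.890 for the 12 positive genes, of which 11 were above 0, and -1.17 for the 12 negative genes, of which 11 were below 0.

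Of the 4 called genes, *dbp* and *pcsk6* kept their sign in TRDKO, with stage differences of 1.79 ± 0.37 (FDR 0.123) and 1.65 ± 0.66 (FDR 0.524). For *klf4* the TRDKO value was 0.15 ± 0.29 (FDR 0.964), with 45.4 and 64.5 CPM and then 21.98 and 23.4 CPM in TRDKO56 and 92.5 and 89.1 CPM and then 35.03 and 46.5 CPM in TRDKO61. It fell at both stages of TRDKO, with log2 FCs of -1.28 (FDR 0.00318) and -1.13 (FDR 0.00571). For *r3hdml* the sign was the opposite, 0.96 ± 0.38 (FDR 0.509), with 19.7 and 22.3 CPM and then 64.4 and 39.2 CPM in TRDKO56 and 8.55 and 7.47 CPM and then 44.9 and 30.6 CPM in TRDKO61. The only other gene of the 24 with an opposite sign was *mmp11*, at -0.09 ± 0.44 (FDR 0.986). The difference between the genotypes was 2.43 ± 0.39 for *klf4* (FDR 0.178), -3.44 ± 0.51 for *r3hdml* (FDR 0.151) and 1.72 ± 0.58 for *mmp11* (FDR 0.9999). That genotype difference was called for 0 of 16501 genes by edgeR (0%), with a smallest FDR of 0.151, 485 genes at an unadjusted p under 0.05, and 2 genes called by DESeq2. By edgeR, a stage difference that depends on the receptors was therefore not shown for any of these genes. Which genes DESeq2 called is not given here. Equal stage differences in the genotypes were not shown either.

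Gene lists can be read the same way. The median TRDKO stage difference was -0.55 for the muscle genes, -1.26 for the notochord and cartilage genes and 0.55 for the replication genes, with the sign of the wild type. It also had that sign, at smaller size, for the immediate early genes (0.08), the mitosis genes (0.16) and the clock genes (0.18). The sign was the other for the heat shock genes (0.03) and the thyroid hormone genes (-0.08), and the median over all genes was 0.01. The clock genes among the 24 leading genes had larger TRDKO values, 1.79 for *dbp*, 0.997 for *cry2*, 0.899 for *nr1d2* and 1.305 for *per2*.

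**Figure D5:**
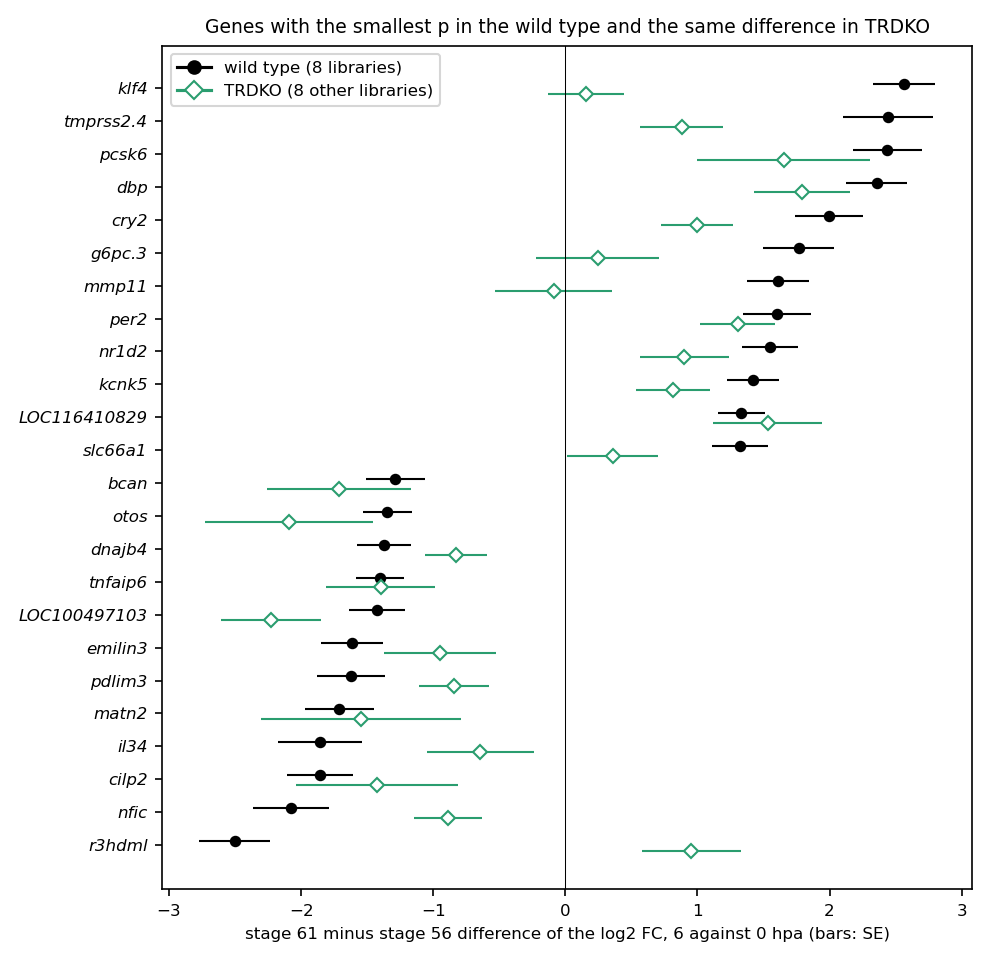
Stage difference of the log2 FC between 6 and 0 hpa in the wild type (filled circles) and in TRDKO (open diamonds) for the 24 genes with the smallest wild-type p, ordered by the wild-type value. Bars are SE from the fit to 8 libraries. In TRDKO 22 of the 24 lie on the same side of 0, *klf4* is near 0, and *r3hdml* and *mmp11* lie on the other side.

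Whether the response as a whole was smaller at stage 61 was asked on genes chosen in TRDKO, since genes chosen in a wild-type stage would favour that stage. Of the genes that were called and changed more than 2-fold in TRDKO56, 1431 were tested in the wild type. Turned to the TRDKO56 direction, their median log2 FC was 1.33 in WT56 and 0.81 in WT61, the median difference was -0.48, and 78.7% had the smaller change in WT61. For 1392 genes chosen in TRDKO61 the medians were 1.00 in WT56 and 0.90 in WT61, the median difference was -0.07, and 53.4% had the smaller change in WT61. The smaller response at stage 61 was thus seen in genes chosen at stage 56 and hardly in genes chosen at stage 61. Genes chosen at a stage of TRDKO may also favour that stage, so these sets do not settle the size of the whole response. The first difference was -0.70 without replicate 2 and -0.29 without replicate 1 of WT61 at 6 hpa. Split by direction, the median difference was -0.34 over 805 genes that rose in TRDKO56 and -0.68 over 626 that fell there. With genes chosen in TRDKO61 it was -0.13 over 823 that rose and 0.05 over 569 that fell, so that genes that fell differed most in the first set and had the other sign in the second.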

How the data were processed

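RNA-seq libraries were made from amputated tails, 2 per condition. Per the labels and the methods, the authors trimmed reads, aligned them to the *X. tropicalis* genome and counted reads per gene, and the deposited values are raw counts, not normalized, for 26531 genes in 24 libraries. The labels name cutadapt 3.2, STAR 2.7.7a and Subread 2.0.1 with featureCounts. The methods name other versions of STAR and Subread, and several genome assemblies, and this conflict is not settled here. Per the file headers the counts came from alignments with duplicates marked. Whether marked reads were counted, and the strand setting, are not given in the sources used here, so reads of overlapping antisense genes cannot be told apart. Before use, 2 gene records broken over several lines were rejoined. Of the symbols, 26530 were matched to the RefSeq table of assembly UCB_Xtro_10.0, and for 99.3% of 26479 unambiguous ones the start position equalled that of the file. No column was left unmapped.

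Genes were kept by filterByExpr, libraries scaled by TMM, and the stage difference tested in R 4.3.3 with the quasi-likelihood test of edgeR 4.0.16 (robust, with limma 3.58.1 and statmod 1.5.0) on the 8 wild-type libraries, with Benjamini-Hochberg adjustment over the 15909 genes tested. The biological coefficient of variation was 16.5%. All FDRs are from this tool unless DESeq2 1.42.0 is named. The same test was run on 8 TRDKO libraries, and the genotype difference on all 16. The test was tried on simulated counts with known changes. The outcome of that trial is not given here, and nothing is drawn from it. Groups came from the labels.

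Named genes are the 12 with the smallest p in each direction at a mean of at least 5 CPM, called list members, the 12 genes named with the series, 8 fixed genes, called genes with opposite changes at the stages, genes called in the genotype difference, and for a list with no call its 2 members with the smallest p. Members and lists were chosen with earlier results of these data known, and the clock list and all further members after their values were seen. Alternatives were other scalings, no filter, thinned counts, a replicate block, all 24 libraries, DESeq2 and leaving out each library. Later times were not tested here.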

Additional observations from a re-analysis of the deposited data

Results flagged for a closer look

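Stage differences that passed an FDR of 0.05 in the wild type rest on the test of the difference itself. They were 2.563 for *klf4*, 2.358 for *dbp*, 2.438 for *pcsk6* and -2.502 for *r3hdml* (edgeR, FDR 0.0252, 0.0252, 0.0293 and 0.0293). In *pcsk6* both stages changed, in opposite directions, and in the other 3 only the change in WT56 passed the test.

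In TRDKO the stages differed in 5 other genes. The unnamed loci *LOC101734942* (3.097, FDR 0.00879) and *LOC116412195* (3.119, FDR 0.0228) had 23.1 and 21.8 CPM and 23.5 and 24.3 CPM in TRDKO56 at 0 hpa and 4.45 and 4.21 CPM and 3.76 and 2.98 CPM at 6 hpa. In TRDKO61 at 6 hpa they had 21.1 and 21.5 CPM and 22.7 and 19.8 CPM. The mucin gene *muc22* differed by 1.796 (FDR 0.0489). The cartilage collagen gene *col9a2* differed by -2.831 (FDR 0.0138), with 101 and 91.7 CPM and 64.5 and 43.3 CPM in TRDKO56 and 47.5 and 44.1 CPM and 3.51 and 3.53 CPM in TRDKO61, so that it fell furthest at stage 61. The cornifelin-like gene *cnfn.1* differed by -2.858 (FDR 0.0414), with 63.9 and 61.6 CPM and 1018 and 1295 CPM in TRDKO56 and 695 and 455 CPM and 1583 and 1281 CPM in TRDKO61. In the wild type the 5 stage differences were 1.51 ± 0.35, 1.23 ± 0.49, 1.97 ± 0.33, -1.63 ± 0.37 and -1.104 ± 0.48, each with the same sign and an FDR over 0.05. For none of these 9 genes did the genotypes differ by the edgeR test of that difference.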

How the results depend on the processing

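The number of wild-type stage differences called depended on the processing more than the values of the 4 called genes did. Some other values moved far. Over the alternatives that left no library out, *lep* ran from -1.62 to -0.02 and *hsp90aa1.2* from -2.56 to -0.70. Against 4 calls (3 higher, 1 lower), a fit with no filter on low counts gave 61 (36 higher, 25 lower), all 24 libraries in 1 fit gave 30 (18 and 12), DESeq2 gave 148 (78 and 70), and counts thinned to the smallest library total gave 1 (1 and 0). RLE and upper-quartile factors left it at 4, and so did the replicate block (4 calls). No strong pairing by replicate number was seen in the wild-type libraries, whose same-numbered deviations had correlations from -0.215 to 0.199. Weaker pairing was not tested. Leaving out 1 library gave 0 to 226 calls, 0 to 101 of them higher and 0 to 152 lower. DESeq2 called all 4 genes and the 24-library fit 3 of them, without *pcsk6* (FDR 0.0679). In thinned counts *dbp* (0.113), *pcsk6* (0.116) and *r3hdml* (0.212) were not called. In TRDKO, against 5 calls, there were 134 with no filter, 12 with the replicate block, 42 with all 24 libraries, 183 with DESeq2 and 0 to 42 with 1 library left out, the most without replicate 1 of TRDKO61 at 6 hpa. The genotype difference, with 0 calls, had 2 with no filter, 1 with all 24 libraries, 2 with DESeq2 and 0 to 1 with 1 library left out, the 1 without replicate 1 of TRDKO56 at 6 hpa. The median size difference over genes chosen in TRDKO56 was -0.477, became -0.070 with genes chosen in TRDKO61, and ran from -0.696 to -0.286 with 1 library left out. The cause of these differences was not tested. A stage difference was estimated for 120 named genes, most of them not called, and 11 changed sign under an alternative. None of these 11 was called in any fit (*bax*, *casp9*, *clock*, *csnk1e*, *fas*, *nfil3*, *prf1*, *rora*, *rpl29*, *rpl38* and *thibz*). For *thibz* the range was -1.88 to 0.77 with 1 library left out. Under the alternatives 145 values of named genes gained a call and 24 lost one. With 2 libraries per condition, low counts and small changes are below what these data resolve.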

Other observations

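Matrix and metabolic genes not described above gave values that did not pass the test of the stage difference. Of 35 matrix metalloproteinases and inhibitors, 10 rose (10.2% of all genes) and 4 fell (8.66%) in WT56. In WT61, 11 rose (4.1%) and 2 fell (3.06%). Their median stage difference was -0.13 (-0.32 to 0.08 with 1 library left out, above 0 without replicate 1 of WT61 at 6 hpa). The metalloproteinase gene *mmp19* rose from 5.41 and 8.59 CPM to 68.97 and 92.7 CPM in WT56 and from 36.8 and 37.9 CPM to 117 and 194 CPM in WT61 (difference -1.56 ± 0.42, FDR 0.267). Of 33 wound matrix and integrin genes the stage difference was negative for 22. The transglutaminase gene *tgm2* rose in WT56 from 57.3 and 61.3 CPM to 88.9 and 186 CPM, while WT61 had 267 and 274 CPM and 269.7 and 241 CPM, so the WT56 libraries stayed below the starting level of WT61. Collagen genes fell in 11 of 49 cases in WT56 (8.66% of all genes) and 6 in WT61 (3.06%). By edgeR 0 rose at either stage (10.2% and 4.1% of all genes). The vascular collagen gene *col8a1* fell in WT61 from 47.2 and 76.9 CPM to 18.4 and 19.8 CPM and had 25.7 and 23.3 CPM and 19.9 and 31.1 CPM in WT56 (difference -1.73 ± 0.38, FDR 0.187).

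Among 36 glycolysis genes the lactate dehydrogenase gene *ldha* rose at both stages, from 96.3 and 113 CPM to 306 and 293 CPM in WT56 and from 39.5 and 40.3 CPM to 63 and 57.9 CPM in WT61 (difference -0.90 ± 0.19, FDR 0.187). The glucose transporter gene *slc2a2* fell in WT56 from 3.504 and 2.76 CPM to 1.09 and 1.09 CPM and had 10.9 and 7.93 CPM and 14.6 and 24.6 CPM in WT61 (difference 2.65 ± 0.52, FDR 0.158). The list's median was -0.15 (-0.25 to -0.06 with 1 library left out). Of 42 proteasome genes 8 rose (10.2% of all genes) and 1 fell (8.66%) in WT56. In WT61, 0 rose (4.1%) and 0 fell (3.06%) by edgeR. Their stage difference was negative for 35 with a median of -0.19. The BMP target gene *id3* fell in WT56 from 253 and 273 CPM to 134 and 122 CPM and had 131 and 143 CPM and 115 and 112 CPM in WT61 (difference 0.79 ± 0.18, FDR 0.196). The fibroblast growth factor gene *fgf10* rose in WT56 from 3.104 and 2.76 CPM to 8.09 and 8.79 CPM and had 4.06 and 3.76 CPM and 4.36 and 5.27 CPM in WT61 (difference -1.18 ± 0.36, FDR 0.303). For 50 NF-kB and apoptosis genes and 39 CDK inhibitor, p53 and senescence genes the medians were -0.03 and 0.07. No gene of these lists was called for the stage difference by edgeR, while DESeq2 called *col8a1*, *ldha* and *slc2a2* among others. At an unadjusted p under 0.05, 6 NF-kB genes were higher and 1 lower, and 5 CDK inhibitor and p53 genes were higher and 1 lower. Over all genes tested the shares were 6.01% higher and 5.47% lower.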
